A study of Mus musculus with 16 samples.

Results

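Marker genes of immune cells were followed in thyroid tissue of mice on a control or an overnutrition diet. The 35 genes were chosen by name as markers of leukocyte lineages, with earlier results of these data known. All of them were found among the 21640 genes of the count table. They comprise 15 genes of macrophages and monocytes, 5 of dendritic cells and major histocompatibility complex (MHC) class II, 4 of T cells, 2 of B cells, 1 of natural killer (NK) and cytotoxic cells, 3 shared by most leukocytes, 2 of neutrophils, 2 of mast cells and the chemokine gene Ccl2. The question for each lineage was whether its genes differed between the diets within a time point.

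Thyroid RNA was sequenced from 16 male wild-type C57Bl/6J mice, 1 library per mouse. Mice were 8 weeks old at the start of the diets, and 4 received the control chow (CD) and 4 a lard-based high-fat chow with sucrose in the drinking water (HF+SD) for 3 weeks, with another 4 and 4 for 6 weeks. The labels name no transgene and no deletion. The time points were separate library projects, so time and project cannot be told apart and levels were not tested between them. Library totals ran from 30025256 to 48508653 counts. The thyroid identity of the tissue was plain in each library, where Tg, the gene of thyroglobulin, took at least 65800 CPM (each count relative to its library's size after TMM adjustment, a trimmed mean over genes, within a time point).

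Macrophages live in most tissues, clear dying cells and debris, and make complement C1q and scavenger receptors. Dendritic cells and other antigen-presenting cells load peptides on MHC class II for CD4 T cells, while B cells make antibodies. Mast cells sit near vessels and store histamine, heparin and proteases in granules. Neutrophils circulate in blood and enter tissue in acute inflammation. In RNA of whole tissue, more or fewer cells of a type cannot be told apart from more or less RNA per cell.

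The libraries differed in genes of tissues that surround the gland and of other cell types within it. At 6 weeks, the summed level of 22 skeletal muscle genes was 34400, 211000 and 123000 CPM in the mice M43, M45 and M48 of the CD, against 821 in M22 and 1110 to 4000 in the HF+SD mice, and 21 of the 22 fell. At 3 weeks this sum was 7.98 to 69.6 CPM in all 8 mice. Genes of white adipocytes fell at both times (6 of 8 at each), and so did those of C cells (3 of 5 at each), while Ret, a receptor gene of the C cell list, rose at 3 weeks (adjusted p = 0.0281). The brown adipocyte genes fell too, 4 of 5 at 6 weeks, where their sum was 639 to 860 CPM in CD mice and 74.6 to 203 CPM in HF+SD mice, and 5 of 6 at 3 weeks. Salivary gland genes summed to 25.7 to 1330 CPM in CD mice and 1440 to 4060 CPM in HF+SD mice at 6 weeks, and to 11.4 to 15.8 and 34.5 to 74.9 CPM at 3 weeks. Only 4 of the 8 genes of that list were found, Amy1 and Dcpp1 to Dcpp3, and they did not move together. At 6 weeks 1 rose and 1 fell, and at 3 weeks 3 rose and 1 fell. Amy1 was lower on the HF+SD, at 24.9 to 104 CPM against 8.2 to 13 CPM at 6 weeks and 11.2 to 15.4 against 4.75 to 8.58 CPM at 3 weeks. Genes of blood endothelium rose at both times (7 of 8 at each), as did 6 of 11 thyrocyte genes at each. Of the hemoglobin and other erythrocyte genes 3 of 6 rose at 6 weeks, and none of the 5 tested at 3 weeks passed. For comparison, of all genes tested 12% rose and 9.55% fell at 6 weeks, and 9.07% rose and 5.78% fell at 3 weeks. A single mouse on the HF+SD at 3 weeks, M7, stood apart for T cell genes, and results that rest on it are given with and without it. Whether these tissues and cell types account for any difference below was not tested, except where a value without a library or with a muscle covariate is given.

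After 6 weeks, 32 of the 35 members had enough counts for the test, and 11 of them rose on the HF+SD, against 12% of all 18249 genes tested that rose. Only Kit fell, against 9.55% of all genes, and 20 did not pass the test. Of the 11, 8 were macrophage genes, and the others were Cd4, the mast cell gene Cpa3 and Ccl2. The median log2 fold change (log2FC, HF+SD minus CD) of the members tested was 0.36, against -0.01 over all genes tested. After 3 weeks, 30 members were tested. Ccr2 alone rose, against 9.07% of 17238 genes, and Cd74 and Kit fell, against 5.78% of genes. The median log2FC of the members was then 0.06. Genes are called at an adjusted p under 0.05 (Benjamini-Hochberg across the genes tested) by the quasi-likelihood test of edgeR. The plot of log2 fold changes for the 35 genes shows these calls by lineage.

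**Figure D1:**
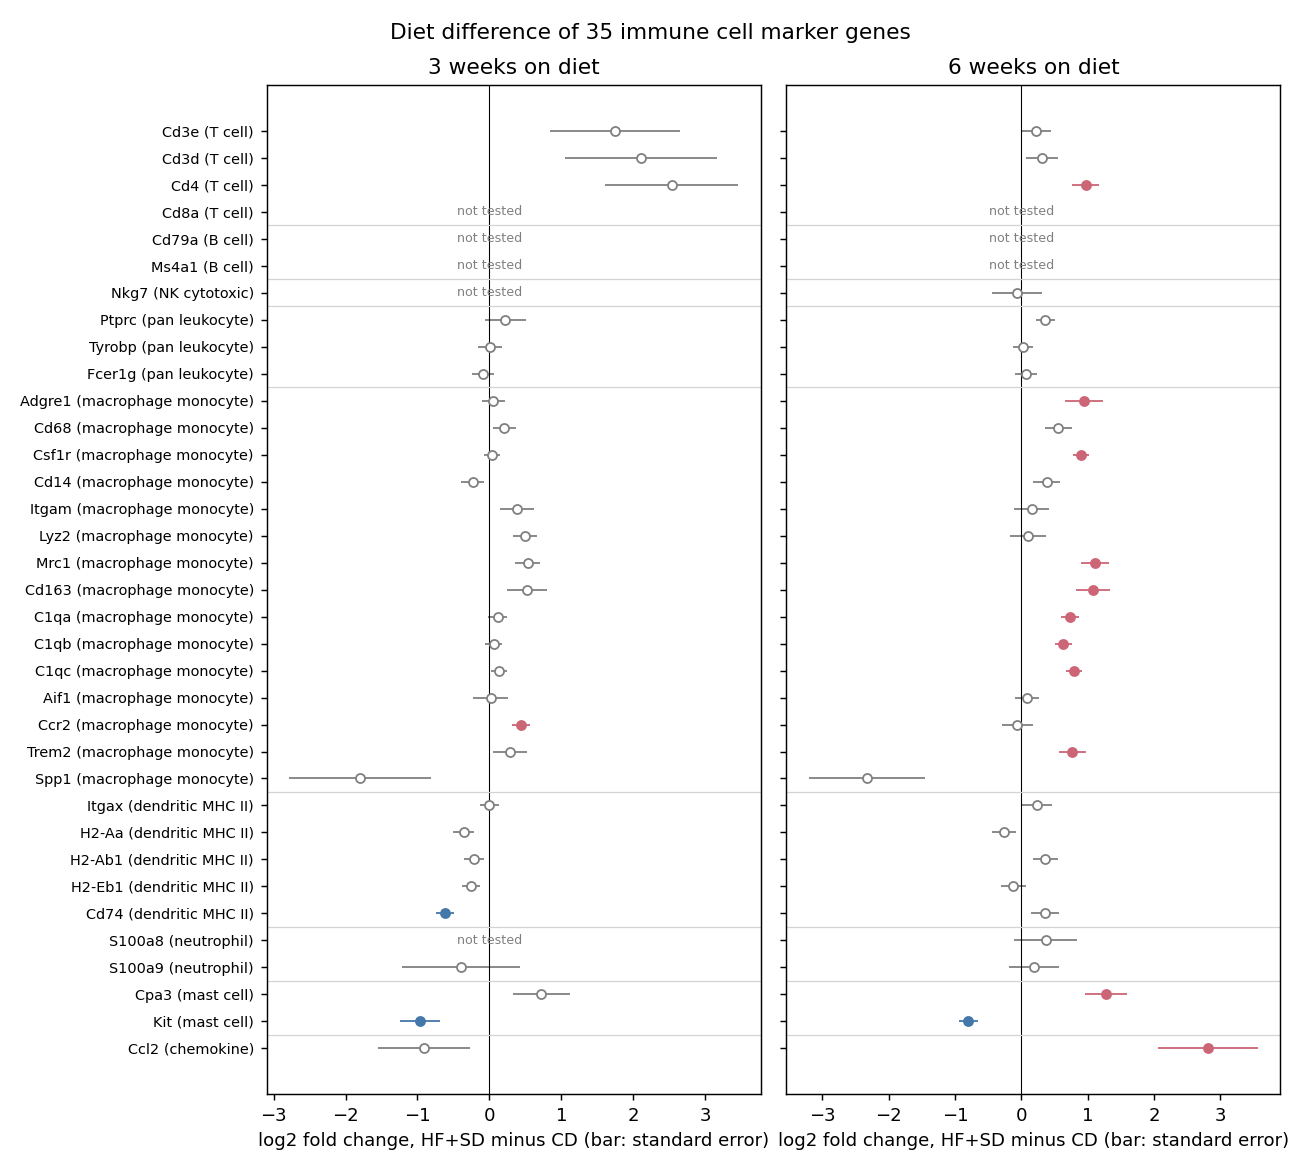
Log2 fold change (HF+SD minus CD) of the 35 immune cell marker genes after 3 weeks (left) and 6 weeks (right), with bars for the standard error and 4 mice per diet. Red points rose and blue points fell at an adjusted p under 0.05, open points did not pass, and genes with too few counts are marked as not tested. At 6 weeks 11 genes rose and 1 fell, and at 3 weeks 1 rose and 2 fell. Scaled to thyrocyte genes instead of TMM, the points at 6 weeks move to the left and 1 rises and 2 fall. Of the 9 scaling genes, 2 themselves rose at 6 weeks under TMM.

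The 8 macrophage members that rose at 6 weeks included Csf1r, the receptor for the growth factor on which macrophages depend, and the 3 genes of complement C1q. Csf1r was at 19.9, 23.3, 26.6 and 22 CPM on the CD (in M22, M43, M45 and M48, the order kept throughout) and at 42.6, 43.1, 38.9 and 46.7 CPM on the HF+SD (in M5, M18, M34 and M35). Each HF+SD mouse was above each CD mouse, and the log2FC was 0.90 (standard error 0.13, adjusted p = 0.00179).

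C1qa, C1qb and C1qc encode the chains of C1q, the first component of the classical complement pathway. C1qa was at 26.0, 28.0, 34.2 and 30.3 CPM on the CD and at 54.9, 48.3, 41.5 and 52.8 CPM on the HF+SD (log2FC 0.74, standard error 0.14, adjusted p = 0.00673). C1qb was at 32.3, 37.5, 35.7 and 32.0 CPM against 61.8, 47.9, 50.1 and 53.7 CPM (log2FC 0.64, standard error 0.12, adjusted p = 0.00815). C1qc was at 21.5, 25.2, 26.1 and 27.7 CPM against 48.9, 40.1, 41.0 and 44.3 CPM (log2FC 0.79, standard error 0.13, adjusted p = 0.00311). In none of the 3 did the diets overlap. An exact two-sided permutation test of 4 mice against 4 gave p = 0.0286 for each, which is the smallest it can give.

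Uptake receptors of resident macrophages also rose. Mrc1, the mannose receptor, was at 13.5, 25.5, 22.3 and 19.4 CPM on the CD and at 55, 41.5, 37.3 and 40.8 CPM on the HF+SD (log2FC 1.11, standard error 0.21, adjusted p = 0.00704). Cd163, which takes up hemoglobin bound to haptoglobin, was at 9.69, 16.6, 16.5 and 11.2 CPM against 32.6, 38.6, 20 and 23.5 CPM (log2FC 1.09, standard error 0.26, adjusted p = 0.0186). The highest CD mouse stayed below the lowest HF+SD mouse for both genes. The Cd163 call was lost without the CD mouse M48 or the HF+SD mouse M18, at an adjusted p of up to 0.0572.

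Trem2, a lipid-sensing receptor of macrophages, was low, at 1.81, 1.64, 1.33 and 1.96 CPM on the CD and 2.69, 2.44, 2.82 and 3.57 CPM on the HF+SD (log2FC 0.77, standard error 0.20, adjusted p = 0.0265), again with no overlap. Adgre1, which encodes the F4/80 antigen, was at 6.97, 12.6, 7.63 and 6.16 CPM against 19.6, 17.8, 17.2 and 9.74 CPM (log2FC 0.95, standard error 0.28, adjusted p = 0.0427). Here the CD mouse M43 was above the HF+SD mouse M35. Both calls depended on single mice, with adjusted p-values of up to 0.0740 for Trem2 (without M43, M45, M18, M34 or M35) and 0.112 for Adgre1 (without M22, M45, M48, M5, M18 or M34).

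**Figure D2:**
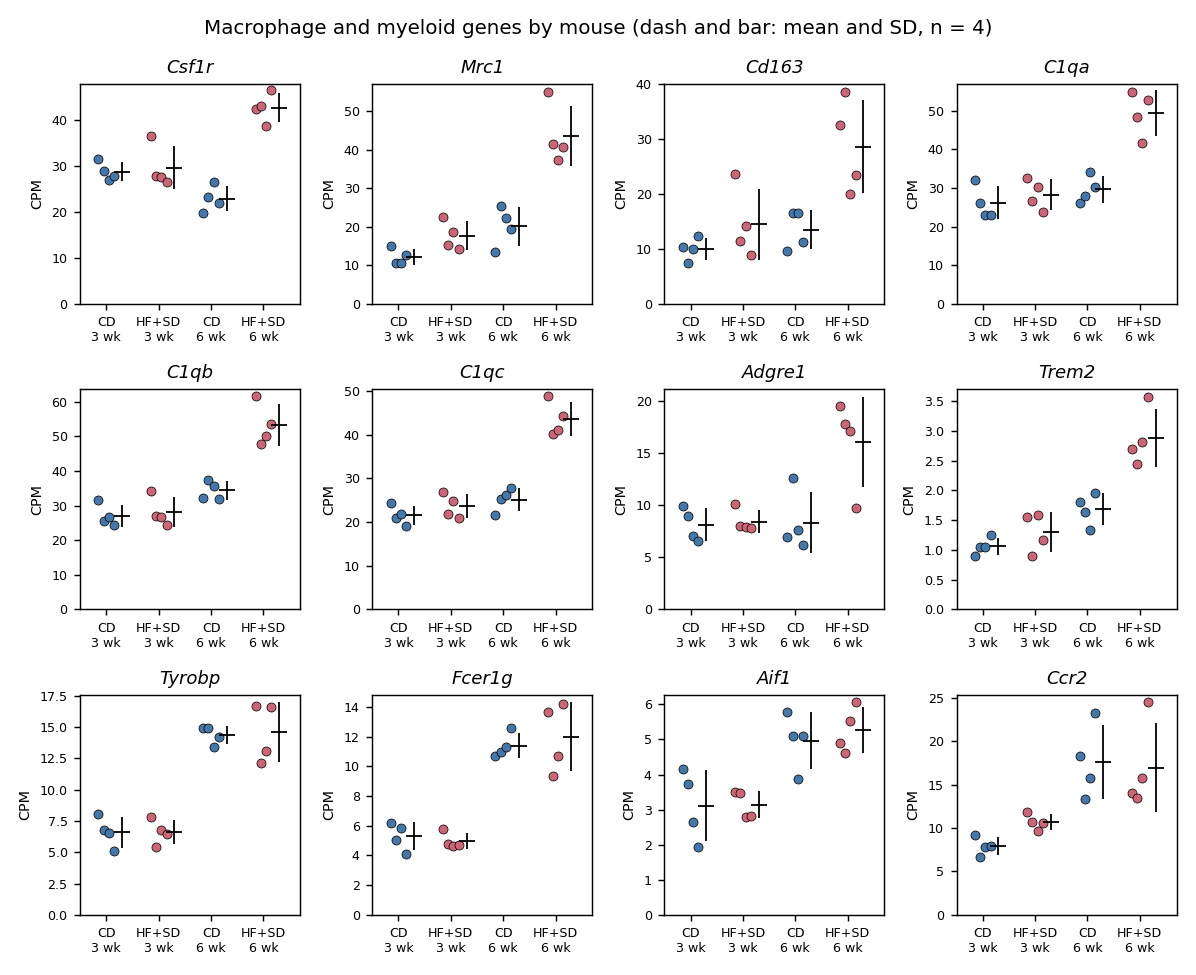
CPM of 12 macrophage and myeloid genes in each mouse (blue, CD; red, HF+SD), with the mean and SD of 4 mice, at 3 and 6 weeks on the diets. Csf1r, Mrc1, Cd163 and the C1q genes do not overlap between the diets at 6 weeks, while Tyrobp, Fcer1g, Aif1 and Ccr2 do. Levels are set side by side across times but belong to separate library projects.

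The other 7 macrophage and monocyte members did not pass at 6 weeks. Cd68, a lysosomal protein of phagocytes, was at 6.36 to 8.65 CPM on the CD and 9.07 to 14.4 CPM on the HF+SD (log2FC 0.56, adjusted p = 0.0790). Cd14, a coreceptor for lipopolysaccharide, had a log2FC of 0.38 (adjusted p = 0.215), and Itgam, an integrin of monocytes and neutrophils, had 0.16 (adjusted p = 0.712). The values were close to 0 for Lyz2, the lysozyme of myeloid cells (0.10, adjusted p = 0.828), Aif1, which encodes IBA1 (0.09, adjusted p = 0.773), and Ccr2, the receptor of inflammatory monocytes for CCL2 (-0.06, adjusted p = 0.885). For Lyz2 the CD mouse M43 was at 254 CPM, against 103 to 138 CPM in the other CD mice and 143 to 187 CPM on the HF+SD. With single mice left out, the log2FC of Lyz2 ran from -0.0452 to 0.43 and never passed.

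Spp1, which encodes osteopontin, was the most uneven member. At 6 weeks it was at 135, 20.7, 12.8 and 15.7 CPM on the CD and at 18.4, 10.1, 2.44 and 5.80 CPM on the HF+SD (log2FC -2.33, adjusted p = 0.0863). The CD mouse M22 lay far above the rest, and without it the log2FC was -0.83 (adjusted p = 0.276). M22 also had the highest summed level of parathyroid genes, 16900 CPM against 585 to 5170 in the other 7 mice; its part in the value was not tested.

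The macrophage list had 23 further genes, all tested at 6 weeks, of which 5 rose, 1 fell and 17 did not pass. Of all genes tested, 12% rose and 9.55% fell. Siglec1, the sialic acid receptor CD169 of tissue macrophages, went from 1.29 ± 0.45 to 4.57 ± 0.43 CPM (SD, n = 4 each; log2FC 1.82, adjusted p = 0.00239), and Fcgr1, the high-affinity receptor for IgG, from 2.32 ± 0.45 to 4.26 ± 0.53 CPM (log2FC 0.87, adjusted p = 0.0169). Atp6v0d2, a proton pump subunit found in osteoclasts and some macrophages, had the largest log2FC of these, from 29.7 ± 8.23 to 168 ± 18.5 CPM (log2FC 2.5, adjusted p = 0.000172), and it also rose at 3 weeks, from 39.1 ± 11.1 to 121 ± 7.73 CPM (log2FC 1.64, adjusted p = 0.000856). On the HF+SD at 6 weeks it was at 147 to 190 CPM, above Csf1r at 38.9 to 46.7 CPM. Csf1r did not pass at 3 weeks (log2FC 0.04, adjusted p = 0.831). Which cells carried Atp6v0d2 was not tested. Plac8, a gene of circulating monocytes and other cells, fell at both times, by 1.11 on the log2 scale at 6 weeks (adjusted p = 0.00229) and by 0.86 at 3 weeks (adjusted p = 0.0213).

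The 8 called macrophage members depended on the scaling of the libraries. Scaled to 9 thyrocyte genes in place of TMM, all 8 stayed above 0 on the log2 scale but none passed the test. Their values ran from 0.11 for C1qb to 0.53 for Mrc1, and the median log2FC of all genes moved to -0.51. The 9 scaling genes were not level between the diets themselves. Under TMM 2 of them rose at 6 weeks, 0 fell and 8 had a log2FC above 0, which lowers other genes under this scaling. How far this accounts for the lost calls was not tested. With the muscle level of each library as a covariate, Csf1r (1.05), Mrc1 (1.50), Cd163 (1.37), C1qa (0.92), C1qb (0.71) and C1qc (0.98) still passed, and Adgre1 and Trem2 did not. Csf1r, Mrc1 and the 3 C1q genes also passed without each of the 8 mice in turn and without M45 and M48 together, an alternative chosen after the data were seen.

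Relations among leukocyte genes do not depend on how libraries are scaled, so each member was also divided by Ptprc, which encodes the leukocyte common antigen CD45. Ptprc itself was at 18.5, 17.1, 12.9 and 16.1 CPM on the CD and 22.6, 19.2, 20.4 and 20.9 CPM on the HF+SD at 6 weeks, with no overlap and a log2FC of 0.36 that did not pass (standard error 0.14, adjusted p = 0.0989). The log2 ratio of Mrc1 to Ptprc was -0.45 to 0.79 with the CD and 0.87 to 1.28 with the HF+SD. For Csf1r the ratios were 0.11 to 1.04 and 0.91 to 1.17 and overlapped, as did those of the C1q genes.

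Some leukocyte genes stood lower against Ptprc on the HF+SD at 6 weeks. The log2 ratio of Tyrobp, an adaptor of myeloid and NK receptors, was -0.31 to 0.06 with the CD and -0.66 to -0.33 with the HF+SD, and that of Aif1 was -1.73 to -1.64 and -2.19 to -1.77. Tyrobp itself was nearly level between the diets (14.4 ± 0.71 and 14.6 ± 2.36 CPM, SD, n = 4 each; log2FC 0.02, adjusted p = 0.922), and so was Fcer1g, the signaling chain of Fc receptors (11.4 ± 0.86 and 12.0 ± 2.34 CPM; log2FC 0.07, adjusted p = 0.805). In exact two-sided permutation tests of the ratios to Ptprc between the diets at 6 weeks, p was 0.0286, the smallest that 4 against 4 mice allow, for Mrc1, Tyrobp and Aif1. The same p was found for Cd4 and Ccl2, which were higher against Ptprc, and for Kit, Spp1, H2-Aa and H2-Eb1, which were lower. It was 0.0571 for C1qc and Trem2, 0.0857 for Csf1r, 0.114 for Cd163, 0.143 for C1qb and Fcer1g and 0.171 for C1qa and Adgre1. These are unadjusted values among 34 ratios. The share of all genes whose ratio to Ptprc separates the diets was not determined, so their number is no result about the members. Ptprc itself was higher on the HF+SD without overlap (log2FC 0.36). A gene that is level between the diets therefore comes out lower against it, as Tyrobp did (difference of log2 ratios -0.36).

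Of the 15 further genes shared by most leukocytes, 3 rose at 6 weeks (12% of all genes did) and none fell. They were Spi1, which encodes the myeloid transcription factor PU.1 (3.09 ± 0.65 to 5.75 ± 0.84 CPM, log2FC 0.90, adjusted p = 0.0166), Laptm5, a lysosomal membrane protein of hematopoietic cells (log2FC 0.66, adjusted p = 0.0396), and Arhgdib (log2FC 1.09, adjusted p = 0.00624). At 3 weeks Arhgdib (log2FC 0.76, adjusted p = 0.00528) and Cd37, a tetraspanin of lymphocytes and myeloid cells (log2FC 0.68, adjusted p = 0.0252), rose.

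PU.1 binds purine-rich sites around a GAGGAA core and acts on many myeloid genes, so the 250 bases before the start site of each member were searched for these letters (GAGGAA, or TTCCTC on the other strand). RefSeq promoters of the assembly GRCm38.p6 were matched for 25 of the 35 members. The letters were in 15 of the 25, and in 23.3% of all 32851 promoters of the same length. A member counted if any of its promoters held the letters, whereas the share is per promoter, so these are unlike measures. Holders included the called genes Mrc1, C1qb, C1qc, Trem2 and Kit. The others, none of them called, were Aif1, Cd68, Itgam, Spp1, Ptprc, S100a8 and the lymphocyte genes Cd3d, Cd3e, Cd8a and Cd79a. The MHC class II genes are instead known for a Y box, and CTGATTGG (CCAATCAG on the other strand) was in 3 of the 25, H2-Aa, H2-Eb1 and Spp1, and in 3.83% of all promoters. A match is a description of the letters and not a measured binding site. Shown here are 5 promoters with these letters in capitals, 4 of macrophage genes that rose at 6 weeks and 1 of an MHC class II gene that did not pass, and they were chosen after the matches were seen. They are read 5′ to 3′ on the gene's own strand, and the last base is the one before the start site. In GRCm38.p6, whereas the counts were made on mm39, they lie at chr4:136886201-136886450 (minus strand) for C1qb, chr4:136892915-136893164 (minus strand) for C1qc, chr2:14229164-14229413 (plus strand) for Mrc1, chr17:48346151-48346400 (plus strand) for Trem2 and chr17:34287824-34288073 (minus strand) for H2-Aa.
C1qb: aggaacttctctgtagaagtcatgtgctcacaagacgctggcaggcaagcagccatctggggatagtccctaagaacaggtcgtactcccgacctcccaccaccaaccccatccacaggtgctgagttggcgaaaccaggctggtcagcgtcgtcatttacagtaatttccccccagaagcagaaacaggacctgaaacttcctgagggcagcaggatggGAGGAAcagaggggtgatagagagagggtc
C1qc: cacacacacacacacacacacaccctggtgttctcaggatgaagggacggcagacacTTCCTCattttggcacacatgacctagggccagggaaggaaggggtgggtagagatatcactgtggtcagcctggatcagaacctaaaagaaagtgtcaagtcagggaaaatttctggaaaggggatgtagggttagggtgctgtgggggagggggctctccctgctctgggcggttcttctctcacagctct
Mrc1: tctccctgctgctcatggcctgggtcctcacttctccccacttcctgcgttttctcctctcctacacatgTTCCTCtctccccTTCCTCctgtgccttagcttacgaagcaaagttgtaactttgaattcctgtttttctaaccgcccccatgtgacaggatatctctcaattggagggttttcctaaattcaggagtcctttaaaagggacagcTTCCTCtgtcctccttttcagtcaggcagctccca
Trem2: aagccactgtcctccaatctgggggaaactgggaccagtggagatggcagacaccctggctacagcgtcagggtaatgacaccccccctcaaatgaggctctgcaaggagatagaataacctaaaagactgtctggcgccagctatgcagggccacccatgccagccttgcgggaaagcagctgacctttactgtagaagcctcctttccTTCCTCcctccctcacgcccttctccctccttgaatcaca
H2-Aa: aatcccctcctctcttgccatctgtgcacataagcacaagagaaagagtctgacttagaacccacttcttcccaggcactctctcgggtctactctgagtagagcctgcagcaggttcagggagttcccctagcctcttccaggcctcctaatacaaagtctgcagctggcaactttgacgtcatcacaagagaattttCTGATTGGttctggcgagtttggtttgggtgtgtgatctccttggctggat
Relative to the start site, with -1 the base before it, the capitals begin at -30 in C1qb, -193 in C1qc, -180, -167 and -35 in Mrc1, -40 in Trem2 and -51 in H2-Aa.

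At 3 weeks the median log2FC of the macrophage members was 0.13, against 0.64 at 6 weeks. Csf1r was at 31.6, 29.0, 27.0 and 27.8 CPM in the CD mice M53, M54, M55 and M96 and at 36.7, 27.8, 27.7 and 26.6 CPM in the HF+SD mice M7, M19y, M20y and M31 (log2FC 0.04, standard error 0.11, adjusted p = 0.831). The log2FC was 0.11 for C1qa, 0.06 for C1qb and 0.13 for C1qc, with adjusted p-values of 0.605, 0.780 and 0.446. Mrc1 was at 14.9, 10.7, 10.5 and 12.7 CPM against 22.6, 15.2, 18.7 and 14.3 CPM (log2FC 0.53, standard error 0.17, adjusted p = 0.0613), and the diets overlapped by a single pair of mice. The alternative test by DESeq2 called Mrc1 (0.52, adjusted p = 0.0261) and Lyz2 (0.48, adjusted p = 0.048) higher at 3 weeks. Without the CD mouse M53, edgeR called Mrc1 too (0.63, adjusted p = 0.0491).

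Ccr2 was the macrophage and monocyte member that rose at 3 weeks. It was at 9.23, 6.65, 7.86 and 7.88 CPM on the CD and at 11.9, 10.7, 9.66 and 10.6 CPM on the HF+SD, with no overlap (log2FC 0.44, standard error 0.12, adjusted p = 0.0402). The call was lost without M54, M96, M7, M19y, M20y or M31, at an adjusted p of up to 0.107, and also scaled to thyrocyte genes (adjusted p = 0.167), with the muscle covariate (0.36, adjusted p = 0.219) and in 1 fit of all 16 libraries (adjusted p = 0.239). The remaining macrophage members that did not pass at 3 weeks were Lyz2 (log2FC 0.49, adjusted p = 0.0834), Cd163 (0.53, adjusted p = 0.234), Itgam (0.39, adjusted p = 0.302), Trem2 (0.29, adjusted p = 0.445), Cd68 (0.20, adjusted p = 0.417), Adgre1 (0.05, adjusted p = 0.843), Aif1 (0.02, adjusted p = 0.974), Cd14 (-0.23, adjusted p = 0.370) and Spp1 (-1.80, adjusted p = 0.245). Of the 22 further macrophage genes tested at 3 weeks, 2 rose, against 9.07% of all genes. The 2 were Atp6v0d2 and F13a1, the coagulation factor XIII subunit made by macrophages (8.97 ± 1.21 to 16.8 ± 5.82 CPM, SD, n = 4 each, log2FC 0.90, adjusted p = 0.0273).

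The diet difference at 6 weeks was tested against that at 3 weeks in 34 members over all 16 libraries. None passed, against 0.0792% of all 18929 genes, and 8 of the 34 had an unadjusted p under 0.05, as did 4218 of the 18929 genes. The smallest adjusted p was 0.0539, for Csf1r, whose log2FC was larger at 6 weeks by 0.80 (standard error 0.17). The differences were 0.60 for C1qc (adjusted p = 0.0696), 0.92 for Cd74 (adjusted p = 0.0731), 3.66 for Ccl2 (adjusted p = 0.0754) and 0.52 for C1qb (adjusted p = 0.0969). The count was open to the choice of test, since DESeq2 called 5 members, Csf1r, C1qb, C1qc, Cd74 and Ccl2, and 1796 genes in all against 15 by edgeR. Without the CD mouse M22 edgeR called 3 (Csf1r, C1qc and Cd74) among 2715 genes, and without M43 it called 2 (Adgre1 and Csf1r) among 1285.

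Of the 5 dendritic cell and MHC class II members, none passed at 6 weeks. H2-Aa, the alpha chain of I-A, was at 205, 206, 152 and 230 CPM on the CD and 180, 136, 143 and 203 CPM on the HF+SD (log2FC -0.26, adjusted p = 0.334). Cd74, the invariant chain that guards the peptide groove of MHC class II, was at 98.0, 94.9, 66.4 and 129 CPM against 130, 104, 112 and 153 CPM (log2FC 0.36, adjusted p = 0.248). H2-Ab1, the beta chain of I-A, had a log2FC of 0.36 (adjusted p = 0.205), H2-Eb1, the beta chain of I-E, -0.12 (adjusted p = 0.687), and Itgax, the integrin CD11c of dendritic cells, 0.24 (adjusted p = 0.491). All 5 overlapped between the diets. Relative to Ptprc, however, H2-Aa was lower on the HF+SD in each mouse, with a log2 ratio of 3.47 to 3.83 with the CD and 2.81 to 3.28 with the HF+SD, and H2-Eb1 was lower too (2.98 to 3.37 and 2.46 to 2.93). The ratios of Cd74 (2.36 to 3.00 and 2.44 to 2.87), H2-Ab1 (2.05 to 2.71 and 2.18 to 2.44) and Itgax (-2.35 to -1.95 and -2.59 to -2.04) overlapped.

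At 3 weeks Cd74 fell. It was at 257, 258, 224 and 188 CPM on the CD and 165, 166, 124 and 151 CPM on the HF+SD, with no overlap (log2FC -0.61, standard error 0.13, adjusted p = 0.0119). The call held without each of the 8 mice in turn, with adjusted p-values of 0.00751 to 0.0399, but was lost with the muscle covariate (log2FC -0.47, adjusted p = 0.0841) and in 1 fit of all 16 libraries (-0.62, adjusted p = 0.0596). The other MHC class II members were below 0 without passing, H2-Aa at -0.36 (adjusted p = 0.135), H2-Eb1 at -0.25 (adjusted p = 0.205) and H2-Ab1 at -0.21 (adjusted p = 0.350), and Itgax was at 0.00 (adjusted p = 0.998). Of the MHC class I list, H2-K1 (482 ± 22.1 to 377 ± 19.6 CPM, SD, n = 4 each; log2FC -0.35, adjusted p = 0.0117) and H2-D1 (424 ± 18.2 to 355 ± 16.3 CPM; log2FC -0.26, adjusted p = 0.0372), both heavy chains, fell at 3 weeks, and none of the 9 genes passed at 6 weeks.

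**Figure D3:**
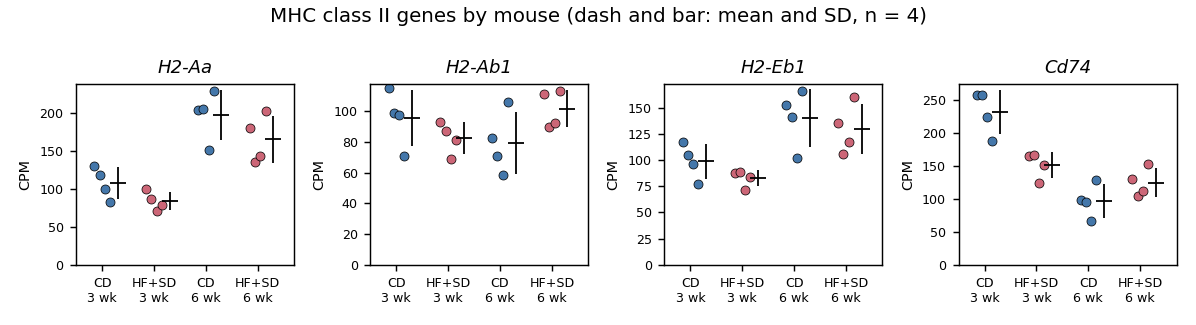
CPM of 4 MHC class II genes in each mouse (blue, CD; red, HF+SD), with the mean and SD of 4 mice. Cd74 is at 188 to 258 CPM on the CD and 124 to 166 CPM on the HF+SD at 3 weeks, and all 4 genes overlap between the diets at 6 weeks. Time points are separate library projects.

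The dendritic list had 17 further genes, of which 3 rose and 1 fell at 6 weeks, against 12% and 9.55% of all genes. Clec10a, a galactose lectin of macrophages and dendritic cells, went from 4.45 ± 0.69 to 8.47 ± 1.32 CPM (SD, n = 4 each; log2FC 0.93, adjusted p = 0.00950), and Xcr1, the chemokine receptor of type 1 dendritic cells, from 0.71 ± 0.15 to 1.30 ± 0.18 CPM (log2FC 0.87, adjusted p = 0.0286). Zbtb46, a transcription factor of dendritic cells that endothelial cells also express, rose at both times (log2FC 0.70, adjusted p = 0.00341 at 6 weeks and log2FC 0.39, adjusted p = 0.0190 at 3 weeks), beside a rise of Pecam1, the endothelial gene CD31, from 90.2 ± 10.8 to 307 ± 18 CPM at 6 weeks; the part of the endothelium was not tested. Cd209a, a lectin of monocyte-derived dendritic cells, fell from 8.50 ± 2.42 to 4.44 ± 1.51 CPM (log2FC -0.94, adjusted p = 0.0457).

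Among the T cell members at 6 weeks, Cd4, the coreceptor for MHC class II that some macrophages also carry, rose. It was at 1.23, 1.10, 0.97 and 0.97 CPM on the CD and at 2.19, 2.07, 2.5 and 1.64 CPM on the HF+SD, with no overlap (log2FC 0.97, standard error 0.21, adjusted p = 0.0120). The CD3 chains of the T cell receptor did not pass. Cd3e was at 2.01, 1.89, 1.66 and 1.05 CPM against 2.11, 1.88, 1.86 and 1.85 CPM (log2FC 0.22, adjusted p = 0.526) and Cd3d had a log2FC of 0.31 (adjusted p = 0.393). Cd8a, the coreceptor of cytotoxic T cells, was at 0 to 0.174 CPM and too low to test. The call of Cd4 was lost with the muscle covariate (log2FC 0.81, adjusted p = 0.108), scaled to thyrocyte genes (0.49, adjusted p = 0.159), in 1 fit of all 16 libraries (0.91, adjusted p = 0.335) and without M45 and M48 (0.86, adjusted p = 0.0959).

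The T cell list had 17 further genes tested at 6 weeks, of which 1 rose and 1 fell, against 12% and 9.55% of all genes. Cd247, the zeta chain of the T cell receptor, went from 0.95 ± 0.20 to 2.22 ± 0.88 CPM (SD, n = 4 each; log2FC 1.22, adjusted p = 0.0346), with the HF+SD mouse M5 (0.98 CPM) within the range of the CD mice, and Il7r, the receptor for the survival factor interleukin 7, from 2.20 ± 0.37 to 1.41 ± 0.18 CPM (log2FC -0.64, adjusted p = 0.0491). Nkg7, a granule protein of NK and cytotoxic cells, was at 0.75, 0.55, 0.42 and 0.48 CPM on the CD and 0.21, 0.56, 0.61 and 0.73 CPM on the HF+SD (log2FC -0.07, adjusted p = 0.918). Klrd1, the NK receptor chain CD94, fell from 1.09 ± 0.20 to 0.60 ± 0.17 CPM (log2FC -0.86, adjusted p = 0.0480).

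At 3 weeks the T cell genes were set by a single mouse. Cd3e was at 2.82 CPM in M7 and 0.169 to 0.355 CPM in the other 7 mice, Cd3d at 3.84 against 0.153 to 0.297 CPM, and Cd4 at 9.79 against 0.411 to 0.844 CPM. Cd8a was at 16.9 CPM in M7 and at 0.0771 to 0.465 CPM in the others. The log2FC of Cd3e was 1.74 with M7 (adjusted p = 0.222) and -0.22 without it (adjusted p = 0.750), and that of Cd3d was 2.11 (adjusted p = 0.204) and -0.44 (adjusted p = 0.488). Cd4 was at 2.54 with M7 (adjusted p = 0.0944) and at 0.49 without it (adjusted p = 0.285).

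Other genes of M7 were high as well. Cd8b1, the beta chain of CD8, was at 8.84 CPM against at most 0.0946 CPM in the other 7 mice, and Trbc1 and Trbc2, the constant regions of the T cell receptor beta chain, were at 11.6 and 13.8 CPM against at most 0.435 CPM. From the thymus list, Prss16, a protease of the thymic cortex, and Arpp21, expressed in early T cells, were at 7.02 and 4.17 CPM against at most 0.925 and 0.0775 CPM. The list's genes of thymic epithelium were not high together in M7, where Foxn1, their defining transcription factor, was at 0.726 CPM against 1.11 to 4.03 CPM in the other 7 mice and the chemokine gene Ccl25 at 10.6 CPM against 3.96 to 9.11 CPM. The B cell members were not high in M7, with Cd79a at 0.108 CPM and Ms4a1 at 0.0806 CPM, both near the floor. Further genes of the B cell list were mixed. M7 was highest for Ighm (9.84 against 4.47 to 8.29 CPM) and Mzb1 (4.09 against 1.49 to 3.15 CPM) and lowest for Cd22 (0.108 against 0.129 to 0.594 CPM). The summed level of the list was 25.7 CPM in M7 and 13.1 to 27 CPM in the others. Ptprc was at 22.2 CPM in M7 and at 8.64 to 11.9 CPM in the others (log2FC 0.22 with M7 and -0.19 without it).

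**Figure D4:**
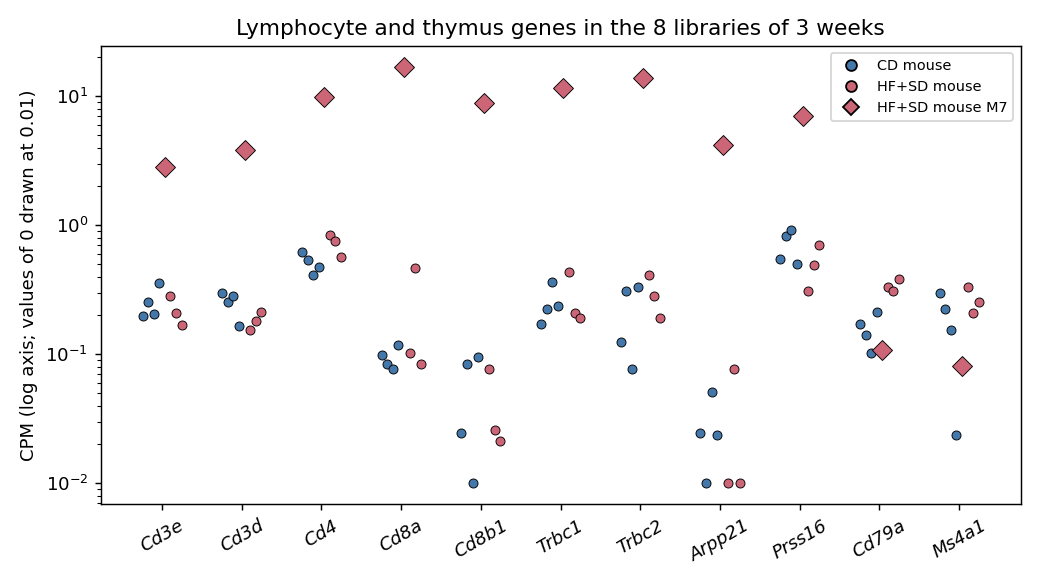
CPM (log axis, values of 0 drawn at 0.01) of T cell, thymus and B cell genes in the 8 mice of 3 weeks, with the HF+SD mouse M7 as diamonds. The T cell and thymus genes drawn lie above those of the other 7 mice in M7, from 2.82 CPM for Cd3e to 16.9 CPM for Cd8a, while Cd79a and Ms4a1 lie among them. Of the thymus list only Arpp21 and Prss16 are drawn, and Foxn1, not drawn, was lowest in M7 (0.726 CPM).

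The B cell members Cd79a, part of the B cell receptor, and Ms4a1, which encodes CD20, were too low to test at both times. Cd79a was at 0.459, 0.160, 0.162 and 0.227 CPM on the CD and 0.0791, 0.721, 0.581 and 0.242 CPM on the HF+SD at 6 weeks, and Ms4a1 was at 0.114 to 0.292 CPM against 0.132 to 0.815 CPM. The diets overlapped for both. Further genes of the B cell list gave 2 lower of 9 tested at 6 weeks, against 9.55% of all genes. Ighm, the heavy chain of IgM, was at 27.0, 55.6, 347 and 67.0 CPM on the CD and 16.1 to 22.7 CPM on the HF+SD (log2FC -2.66, adjusted p = 0.0278), and its highest mouse was M45, which also had the most muscle RNA; the part of that tissue was not tested. At 3 weeks Ighm rose instead, from 5.43 ± 0.72 to 8.22 ± 1.17 CPM (SD, n = 4 each; log2FC 0.59, adjusted p = 0.0239). Fcer2a, the IgE receptor CD23, fell at both times, by 1.44 on the log2 scale at 6 weeks (adjusted p = 0.00918) and by 2.54 at 3 weeks (adjusted p = 0.00688).

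The neutrophil members S100a8 and S100a9, which encode the calprotectin subunits, were near the limit of detection. S100a8 was at 0.401, 0.0685, 0.292 and 0.369 CPM on the CD and 0.316, 0.282, 0.320 and 0.510 CPM on the HF+SD at 6 weeks (39 and 51 counts over 4 mice each; log2FC 0.37, adjusted p = 0.617). S100a9 had 57 and 66 counts (log2FC 0.19, adjusted p = 0.748). At 3 weeks S100a8 had 33 and 24 counts and was not tested, and S100a9 had 48 and 37 (log2FC -0.40, adjusted p = 0.774). None of the 5 further neutrophil genes tested at 6 weeks or the 4 at 3 weeks passed, although the summed level of the list reached 975 CPM in the CD mouse M43 and 149 in the HF+SD mouse M34 through Ltf, the gene of lactoferrin, which glands also secrete (971 and 144 CPM, and at most 11.6 CPM in the other mice of 6 weeks).

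The mast cell members went in opposite directions at 6 weeks. Cpa3, the carboxypeptidase of mast cell granules, was at 1.09, 1.92, 1.62 and 1.31 CPM on the CD and at 4.03, 4.76, 1.83 and 3.78 CPM on the HF+SD (log2FC 1.27, standard error 0.31, adjusted p = 0.0209). The HF+SD mouse M34 lay among the CD mice, and the call was lost without M48, M18 or M35 (adjusted p of up to 0.0643) and with the muscle covariate (log2FC 1.53, adjusted p = 0.0540).

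Other granule and receptor genes of mast cells also rose. Of 9 further genes of the list tested at 6 weeks, 7 rose and none fell, against 12% and 9.55% of all genes. Cma1, the gene of chymase, went from 1.20 ± 0.28 to 4.52 ± 1.48 CPM (SD, n = 4 each; log2FC 1.91, adjusted p = 0.00353), Mcpt4, another chymase, from 1.82 ± 0.72 to 6.06 ± 2.3 CPM (log2FC 1.74, adjusted p = 0.0160), Tpsb2, a tryptase, from 1.29 ± 0.30 to 4.02 ± 1.32 CPM (log2FC 1.63, adjusted p = 0.00691), and Ms4a2, the beta chain of the IgE receptor, from 0.11 ± 0.08 to 0.33 ± 0.08 CPM (log2FC 1.61, adjusted p = 0.0355). In each of these 4 genes the lowest HF+SD mouse was above the highest CD mouse. With the muscle covariate 5 of the 7 passed, and scaled to thyrocyte genes 2 did.

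Kit, the receptor for stem cell factor, is expressed by mast cells but also by other cells. It fell at 6 weeks, from 40.9, 36.2, 32.1 and 33.0 CPM on the CD to 18.6, 17.0, 22.2 and 24.1 CPM on the HF+SD (log2FC -0.80, standard error 0.15, adjusted p = 0.00698), with no overlap and with the call kept under each alternative that gave it a value except the log2 fold minimum of 1, which it does not reach. At 3 weeks it was at 71.5, 67.8, 27.0 and 84.8 CPM against 30.7, 33.9, 32.2 and 32.2 CPM (log2FC -0.96, standard error 0.28, adjusted p = 0.0448). The call at 3 weeks was lost with upper-quartile factors (adjusted p = 0.0546) and by limma (adjusted p = 0.0755). The CD mouse M55 was then below each HF+SD mouse, and leaving out any of the other 7 mice lost the call (adjusted p of up to 0.108), while leaving out M55 gave a log2FC of -1.21. Calca, the calcitonin gene of C cells, fell as well, from 6940 ± 1870 to 3720 ± 56.8 CPM at 6 weeks (SD, n = 4 each; adjusted p = 0.0236) and from 3510 ± 793 to 2320 ± 127 CPM at 3 weeks (adjusted p = 0.0254); its part in the Kit level was not tested.

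At 3 weeks Cpa3 was at 0.445, 0.648, 0.257 and 0.426 CPM on the CD and 0.860, 0.307, 0.775 and 0.972 CPM on the HF+SD (log2FC 0.72, adjusted p = 0.244). Of 5 further mast cell genes tested at 3 weeks, Gata2, a transcription factor of mast cells and endothelium, rose from 6.56 ± 0.71 to 12.0 ± 3.05 CPM (SD, n = 4 each; log2FC 0.87, adjusted p = 0.0110). Cma1 (log2FC 0.67, adjusted p = 0.450), Mcpt4 (0.40, adjusted p = 0.413) and Tpsb2 (1.14, adjusted p = 0.242) did not pass. The plot of mast cell genes by mouse shows the granule genes and Kit on both diets.

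**Figure D5:**
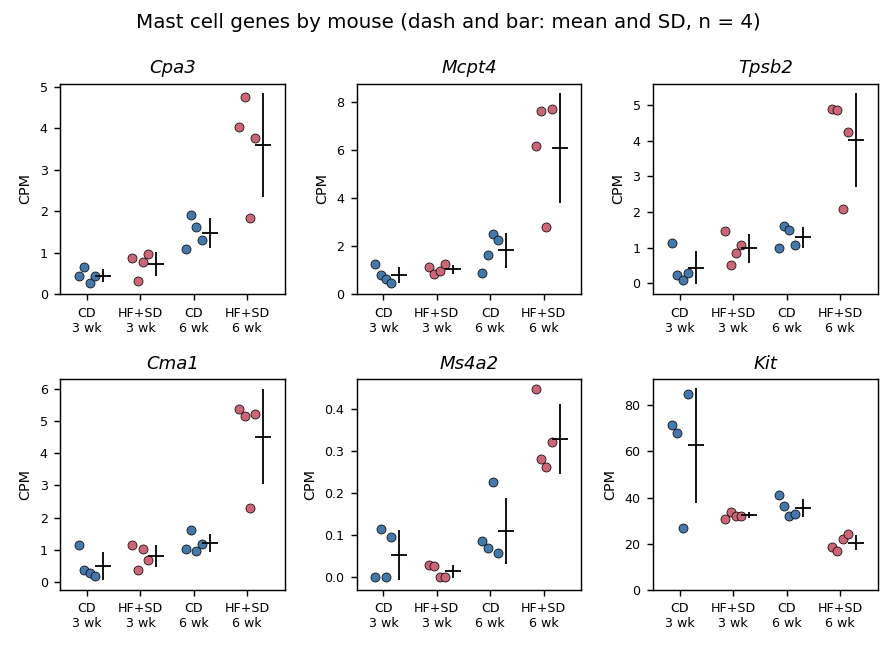
CPM of 6 mast cell genes in each mouse (blue, CD; red, HF+SD), with the mean and SD of 4 mice. At 6 weeks the granule and receptor genes are higher and Kit is lower on the HF+SD, Cpa3 with 1 overlapping HF+SD mouse at 1.83 CPM. Scaled to thyrocyte genes, of which 2 of 9 themselves rose under TMM, the log2FC at 6 weeks is 0.71 for Cpa3 (adjusted p = 0.160) and -1.27 for Kit (adjusted p = 0.00632).

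Ccl2, the chemokine that draws CCR2-bearing monocytes, rose at 6 weeks. It was at 0.488, 0.388, 1.07 and 0.966 CPM on the CD and at 14.2, 1.82, 1.95 and 2.36 CPM on the HF+SD, with no overlap (log2FC 2.81, standard error 0.76, adjusted p = 0.0285). M5 was far above the rest, and without it the log2FC was 1.50 (adjusted p = 0.0330). The call was lost without M43, M45 or M48 (adjusted p of up to 0.0689). Of the 18 alternatives that gave Ccl2 a value at 6 weeks, 14 kept the call. DESeq2 gave it no adjusted p at that time. At 3 weeks Ccl2 was at 1.26, 0.592, 3.26 and 0.449 CPM against 0.242, 0.767, 1.21 and 0.718 CPM (log2FC -0.91, adjusted p = 0.365).

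Of the other chemokine and cytokine genes, 17 were tested at 6 weeks, of which 2 rose and 2 fell, against 12% and 9.55% of all genes. Ccl8, a monocyte attractant made by macrophages, went from 0.53 ± 0.24 to 1.74 ± 0.68 CPM (SD, n = 4 each; log2FC 1.71, adjusted p = 0.0166), and Cxcl12, a stromal chemokine for CXCR4-bearing cells, from 168 ± 12.9 to 356 ± 67.1 CPM (log2FC 1.08, adjusted p = 0.00308). Cxcl13, the B cell attractant of lymphoid follicles, fell from 120 ± 49.6 to 28.1 ± 6.70 CPM (log2FC -2.10, adjusted p = 0.00168), and Cxcl9, induced by interferon gamma, from 2.06 ± 0.23 to 0.85 ± 0.10 CPM (log2FC -1.27, adjusted p = 0.00268). At 3 weeks Cxcl12 rose (log2FC 0.72, adjusted p = 0.0495), Cxcl13 fell (log2FC -0.73, adjusted p = 0.0230), and Il34, a second ligand of CSF1R, fell (log2FC -0.85, adjusted p = 0.0457).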

How the data were processed

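The authors deposited raw counts, whole reads per gene with no normalization, for 21640 genes and 16 libraries, and a normalized signal, in which each deposited count is divided by 1 constant per library. Per the labels, libraries were poly(A) selected from thyroid RNA. The submitters' processing notes name Trim Galore 0.6.7, STAR, DESeq2 1.36.0, R 4.1.0 and the build mm39. For the counter, the annotation and any gene filter, nothing is given in the sources used here.

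Identifiers were matched without version to GENCODE M21, which named 20841 genes. Of 299 entries in 24 marker lists, 275 were found, and the others were not analysed here. Members and lists were chosen with earlier results of these data known. Named were all members, per-mouse CPM of those called and of at least 1 per lineage, and per list and time up to 4 other called genes with the largest log2 fold change. Diets were compared within each time with edgeR 4.0.16 in R 4.3.3 (TMM, filterByExpr by group, glmQLFit, glmQLFTest, Benjamini-Hochberg over all tested genes, no fold minimum), and times by the interaction over 16 libraries. Single genes also had an exact permutation test (70 assignments). In log2 ratios, log2 CPM used a prior count of 2. Mice are the replicates. The study lists fewer CD mice at 6 weeks than were deposited and does not say which was omitted, so none was omitted here in the main tests. In counts simulated from these libraries, 23.5% of 98 genes changed 2-fold and 84.2% of 95 changed 4-fold were recovered at 6 weeks, with 17972 genes tested. At 3 weeks these shares were 70.5% of 95 and 91.8% of 98, with 16986 genes tested.

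Alternatives were DESeq2 1.42.0, RLE or upper-quartile factors, scaling to 9 thyrocyte genes, removal of muscle genes, no filter beyond 1 count, at least 10 counts in every library, limma 3.58.1 on log2 of the deposited signal plus 1, a log2 fold minimum of 1, the muscle level as a covariate, 1 fit of 16 libraries and each mouse left out. The deposited signal served that alternative only.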

Additional observations from a re-analysis of the deposited data

Results flagged for a closer look

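A single mouse lay far from the other 3 of its group in 11 of 140 gene and group combinations, by Dixon's criterion at its 95% critical value, which chance alone meets in about 1 of 20. On the HF+SD at 3 weeks the mouse was M7 in 6 of them, with Cd3e at 2.82 CPM (next mouse 0.281), Cd3d at 3.84 (0.211), Cd4 at 9.79 (0.844), Fcer1g at 5.78 (4.76), Adgre1 at 10.1 (8.01) and Csf1r at 36.7 (27.8). Spp1 was low in M19y of the same group, at 0.179 CPM against 4.60 in the next mouse. The summed level of parathyroid genes was also lowest in M19y, at 64.1 CPM. It was 119 CPM in the CD mouse M54, where Spp1 was at 0.451 CPM, and 1140 to 5140 CPM in the other mice of 3 weeks. M53 was highest for both, with Spp1 at 33.7 CPM. The part of that tissue was not tested. On the HF+SD at 6 weeks M5 was high for Ccl2, at 14.2 CPM (2.36), and for Cd3e, at 2.11 CPM (1.88). On the CD, Cd8a was at 0 CPM in M45 at 6 weeks (0.137), and Ptprc was at 8.92 CPM in M96 at 3 weeks (11.4).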

How the results depend on the processing

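At 6 weeks 12 members were called, 3 when scaled to thyrocyte genes (Ccl2 higher, Kit and Spp1 lower), 4 with a fold minimum, 6 without M45 and M48, and 8 to 12 without single mice. At 3 weeks 3 were called, 5 by DESeq2, 0 with a fold minimum (in edgeR without that minimum, 7 of 30 tested members had an unadjusted p under 0.05, as did 5337 of 17238 genes), 1 with the muscle covariate, and 1 to 3 without single mice. The interaction called 0 members, 5 by DESeq2, 1 with RLE factors, 1 by limma, and 0 to 3 without single mice. Other settings gave 9 to 12 members at 6 weeks and 2 or 3 at 3 weeks. The cause of these changes was not tested. No paired analysis was possible because the labels number no replicates across the diets. Of 1134 values of single members, 72 changed sign, in 20 genes, and none of these was called in either fit. The log2 fold changes that turned at 6 weeks, scaled to thyrocyte genes, were Cd3e -0.26, Cd3d -0.16, Ptprc -0.12, Tyrobp -0.48, Fcer1g -0.45, Cd14 -0.0719, Itgam -0.38, Lyz2 -0.46, Aif1 -0.39, Itgax -0.22, H2-Ab1 -0.14, Cd74 -0.14, S100a8 -0.0584 and S100a9 -0.31. Tyrobp was at -0.0010 with RLE factors, -0.0402 without muscle genes, -0.0220 by limma, -0.0291 in 1 fit of 16 libraries and -0.0180 without M45 and M48. Fcer1g was at -0.0008 without muscle genes and Aif1 at -0.0792 with the muscle covariate. Without M45 and M48, Cd3e was at -0.0072, Lyz2 at -0.12, Aif1 at -0.0364 and Ccr2 at 0.11. At 3 weeks Tyrobp was at -0.0057 by DESeq2, -0.0043 with RLE factors, -0.0003 with no filter and -0.0146 by limma. Itgax was at 0.0167 with upper-quartile factors, 0.0043 scaled to thyrocyte genes, 0.0087 with at least 10 counts and 0.0830 with the muscle covariate, which also gave Fcer1g 0.0370, S100a9 0.61 and Ccl2 0.21. Without single mice at 6 weeks, the ranges that crossed 0 were Aif1 -0.0328 to 0.17, Ccr2 -0.28 to 0.10, Fcer1g -0.0167 to 0.18, Lyz2 -0.0452 to 0.43, Nkg7 -0.26 to 0.21, S100a8 -0.0189 to 0.60, S100a9 -0.0307 to 0.42 and Tyrobp -0.0380 to 0.11. At 3 weeks they were Adgre1 -0.0426 to 0.16, Aif1 -0.16 to 0.18, C1qb -0.0496 to 0.14, Cd3d -0.44 to 2.47, Cd3e -0.22 to 2.10, Csf1r -0.0758 to 0.0910, Itgax -0.0687 to 0.0470, Ptprc -0.19 to 0.37, S100a9 -1.04 to 0.45 and Tyrobp -0.10 to 0.11. Cd8a, Cd79a, Ms4a1 and the neutrophil members had too few counts for a small difference to be detected.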
